A study of Arabidopsis thaliana with 12 samples.

Results

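Pectin methylesterases (PMEs) and the proteins that inhibit them were described across roots of *A. thaliana* grown with and without phosphate (Pi). The genes were 44 named loci of both families, taken by their locus identifiers. The rule used no expression values, but the list was drawn up with earlier results of these data known. Of these, 34 had a row among the 19802 genes of the deposited expression table, 30 coding for PMEs and 4 for inhibitors. The other 10 loci, among them the inhibitors *PMEI1* and *PMEI2*, were not analysed here.

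Pectin is secreted into the plant cell wall with most of its acidic groups covered by methyl esters. PMEs remove these esters in the wall, after which the charged chains can be cross-linked by calcium and stiffen the wall, or can be cut by polygalacturonases and pectate lyases. PME inhibitors are small secreted proteins that bind PMEs and block them, and many PMEs are made with a prodomain that resembles an inhibitor and is cut off by subtilases. In roots the balance of both families is known to affect cell elongation and the growth of root hairs.

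Roots were taken from wild-type seedlings (Col-0) and from seedlings of the CRR OE line after 7 days on medium with 1 mM Pi (+Pi) or with no added Pi (–Pi). CRR OE is Col-0 carrying a transgene for *CRR*, a membrane protein with DOMON and cytochrome b561 domains, as a GFP fusion driven in most cells by the CaMV *35S* promoter, and 1 such line was sequenced. There were 4 groups of 3 RNA-seq libraries (12 in all), each library made from the pooled roots of many seedlings. The values are the authors' mean of each group in log2 CPM (CPM, counts scaled to a fixed sum of reads per library, on the log2 scale). From these means the spread between the 3 libraries of a group and the reads behind each value could not be computed, and no test was made. The authors' own test results were not used. A difference between groups is therefore given as a value with no error, and it may lie within the spread between libraries. *CRR* itself (AT3G25290) stood at 5.96 in Col-0 +Pi, 5.95 in Col-0 –Pi, 12.70 in CRR OE +Pi and 12.72 in CRR OE –Pi, as the labels state.

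Descriptive limits were used in place of a test. One is a 2-fold difference, that is 1 on the log2 scale. The other is the central 95% of the differences of all genes of the same level class, the classes being a mean over the groups below 0, from 0 to 2, from 2 to 5 and of 5 or more log2 CPM. By its construction 5.02% of all genes lie outside this central range in each comparison. The members are present in the table because they passed the authors' filter on low values, so no count over them stands for all genes of the families.

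The sequences upstream of 3 PME genes are shown, *PME24* and *PME46* as the members past 2-fold in both lines and *PME20* for a match to a Pi starvation element close to its start. *PME24* and *PME46* were higher in –Pi roots of both lines, whereas *PME20* was 0.91 higher in –Pi in Col-0 and 0.25 higher in CRR OE on the log2 scale. Both *PME20* values lay inside the central range of its level class, which was -0.86 to 1.07 in Col-0. Each sequence is the 250 bases before the annotated gene start, on the strand of the gene (the + strand for all 3), from RefSeq's TAIR10.1 assembly, on which the nuclear coordinates of these genes equal those of TAIR10. They lie at chr3:3351827-3352076 (*PME24*), chr5:1461536-1461785 (*PME46*) and chr2:19508679-19508928 (*PME20*). Capitals mark, in *PME24* and *PME46*, the longest stretch that both share without gaps and, in *PME20*, a match to the letters GNATATNC.
PME24: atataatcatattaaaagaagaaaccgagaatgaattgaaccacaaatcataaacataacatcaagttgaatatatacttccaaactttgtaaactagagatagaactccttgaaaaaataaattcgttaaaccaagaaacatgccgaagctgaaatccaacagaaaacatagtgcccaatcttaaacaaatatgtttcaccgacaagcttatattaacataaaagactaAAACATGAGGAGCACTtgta
PME46: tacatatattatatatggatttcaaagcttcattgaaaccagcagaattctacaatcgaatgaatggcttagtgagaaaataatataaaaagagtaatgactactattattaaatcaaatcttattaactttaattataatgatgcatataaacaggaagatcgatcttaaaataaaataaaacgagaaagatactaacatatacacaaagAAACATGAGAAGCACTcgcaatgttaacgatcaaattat
PME20: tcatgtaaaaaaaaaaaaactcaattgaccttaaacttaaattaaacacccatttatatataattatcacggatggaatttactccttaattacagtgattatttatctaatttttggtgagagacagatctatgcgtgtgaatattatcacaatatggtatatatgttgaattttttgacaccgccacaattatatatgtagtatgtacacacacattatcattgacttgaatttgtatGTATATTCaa

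The stretch shared by *PME24* and *PME46* was 16 bases long with 15 identical bases, and began 20 and 39 bases before the respective gene start. Read as AAACATGAGNAGCACT on either strand, it was found upstream of 2 of 19782 genes (0.0101%), which were these 2 genes. As these letters were taken from the 2 sequences themselves, both matches were fixed in advance, and the share is no measure of specificity. The stretch was looked for after the genes had been chosen. A stretch kept between relatives is a description of the sequences, not a binding site. The genes are each other's closest relatives among the members, with 73.14% identical coding bases.

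GNATATNC is the P1BS element, the letters bound by PHR1, a transcription factor of the Pi starvation response. It was searched on both strands. In 250 bases upstream it was present in 4 of 34 members (11.8%) and in 5.54% of all 19782 genes with an upstream sequence. In 1000 bases it was present in 10 of 34 members (29.4%) and in 20.5% of all genes. In *PME20* the match began 10 bases before the gene start, with further matches 295 and 943 bases before it. *ATPMEPCRA* and *PME15* also held a match in 250 bases, which began 175 and 169 bases before the start.

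The upstream 250 bases of *PME24* and *PME46*, the members with the highest –Pi levels relative to +Pi, held no match to these letters.

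Per kb of exon, *ATPMEPCRA* (AT1G11580) had the highest mean level of the members, with 7.85 log2 CPM per kb, followed by *PME3* (AT3G14310) with 7.59 and *PME17* (AT2G45220) with 6.45. *ATPMEPCRA* stood at 8.83 log2 CPM in Col-0 +Pi, 8.95 in Col-0 –Pi, 8.87 in CRR OE +Pi and 8.64 in CRR OE –Pi. *PME3*, a broadly expressed enzyme that is also known as the target of a nematode cellulose-binding protein, stood at 8.68, 8.88, 8.71 and 8.95 in the same order of groups. *PME17*, known as a substrate of the subtilase SBT3.5 in roots, stood at 7.44, 7.16, 7.55 and 7.54. The largest difference among these 3 genes in any comparison was 0.38 on the log2 scale, *PME17* in CRR OE –Pi over Col-0 –Pi. That value lay inside the central range of its level class, close to the upper limit. *ATPMEPCRA* lay just outside the range in the same comparison, with -0.31 against a lower limit of -0.29. *ATPMEPCRA* and *PME3* alone made up 45.89% of the summed CPM of the members in Col-0 +Pi and 41.19% in CRR OE –Pi.

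**Figure D1:**
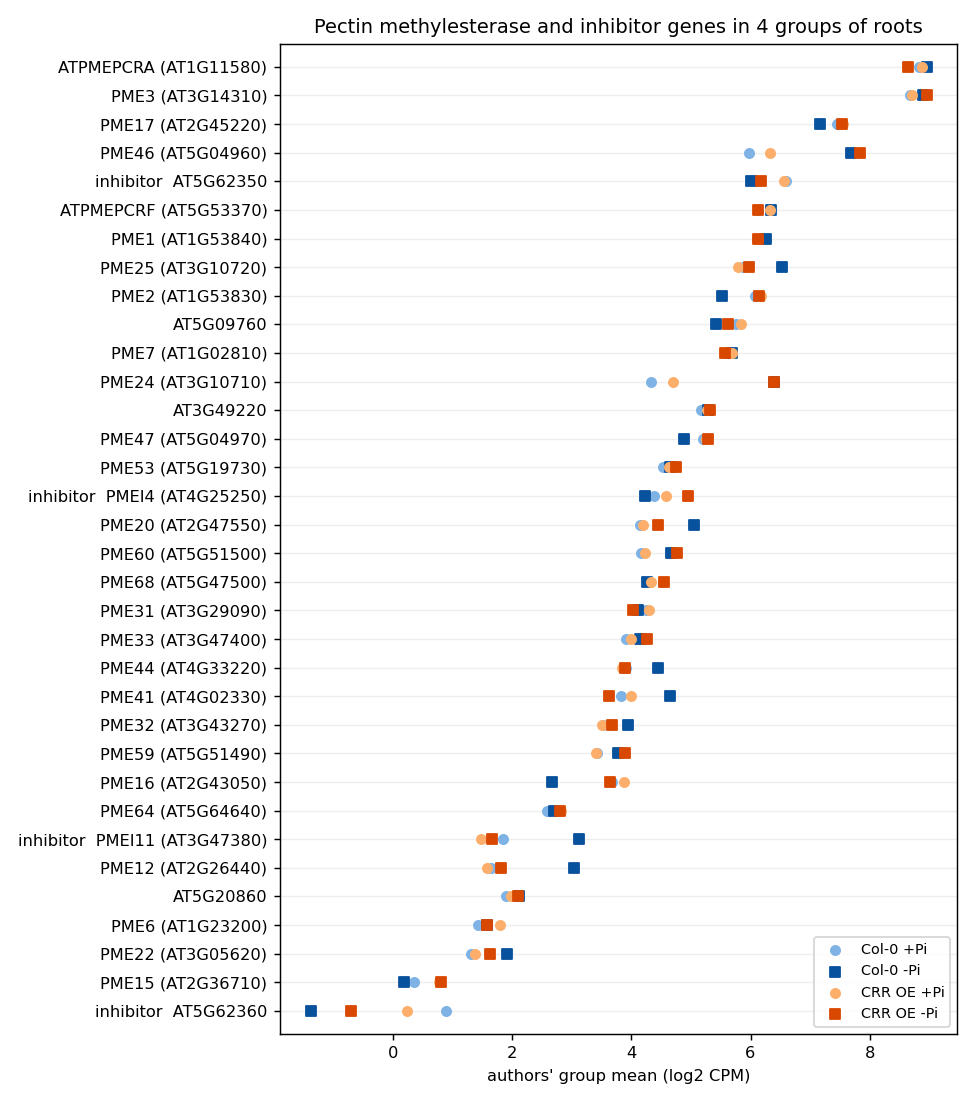
Authors' group mean of each of the 34 members in log2 CPM (x axis), ordered by the mean over the 4 groups; light symbols are +Pi, dark symbols –Pi, blue Col-0 and orange CRR OE, with no error bars because no value per library was used. The members run from AT5G62360, with -1.37 in Col-0 –Pi, to *ATPMEPCRA*, with 8.95 in Col-0 –Pi, and the 4 symbols of most members lie close together.

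In Col-0 the –Pi roots had 4 members at least 2-fold above +Pi, 11.8% of the members against 3.96% of all genes. These were *PME24*, *PME46*, *PME12* and the inhibitor gene *PMEI11*. At least 2-fold below +Pi were *PME16* and the inhibitor gene AT5G62360, 5.88% of the members against 2.00% of all genes. Outside the central range of their level class were 7 members (20.6%), the 6 genes above and AT5G62350. AT5G62360 (-2.259, limit -2.251) and AT5G62350 (-0.575, limit -0.565) were only just outside. The median difference of the members was 0.15 on the log2 scale, with -0.02 over all genes, and the median size of the difference regardless of direction was 0.33 against 0.14. By level class the median size was 0.30 for the 14 members of 5 or more log2 CPM, against 0.10 for all genes of that class, and 0.39 for the 16 members from 2 to 5, against 0.15. For the 3 members from 0 to 2 it was smaller than that of all genes, 0.16 against 0.32, and the member below 0 had 2.26 against 0.65.

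The summed level of the PMEs was 1758 CPM in Col-0 +Pi, 2107 in Col-0 –Pi, 1852 in CRR OE +Pi and 2068 in CRR OE –Pi. That of the 4 inhibitors was 122.6, 92.4, 122.4 and 107 CPM in the same order. In both lines the –Pi sum was higher for the enzymes and lower for the inhibitors, and each sum is dominated by few genes.

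*PME24* (AT3G10710, chr3:3352077-3354375), also known as *RHS12* for its root-hair-specific expression, stood at 4.32 log2 CPM in Col-0 +Pi, 6.39 in Col-0 –Pi, 4.70 in CRR OE +Pi and 6.39 in CRR OE –Pi. The –Pi level was 4.20-fold the +Pi level in Col-0, against 3.23-fold in CRR OE. *PME46* (AT5G04960, chr5:1461786-1464066) stood at 5.98, 7.68, 6.33 and 7.84 in the same order, 3.26-fold and 2.86-fold higher in –Pi. Both genes reached similar levels in –Pi roots of both lines, with a gap of 0.00 for *PME24* and 0.16 for *PME46* on the log2 scale. In +Pi both were above Col-0 in CRR OE, by 0.38 and 0.35 on the log2 scale, which lay outside the central range of -0.14 to 0.23 of genes of their level class. They were the only members past 2-fold in CRR OE (–Pi against +Pi), 5.88% of the members against 3.18% of all genes.

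The 6 root hair marker genes also had –Pi means above +Pi in both lines. Their summed level was 147.7 CPM in Col-0 +Pi, 384.4 in Col-0 –Pi, 172.2 in CRR OE +Pi and 424.8 in CRR OE –Pi, and 3 of the 6 were past 2-fold in each line. *LRX1*, coding for a wall protein of root hairs, had log2 differences of 2.05 (Col-0) and 1.98 (CRR OE), and the expansin gene *EXPA7* had 1.25 and 1.37. The regulator gene *RSL4* had 0.53 and 0.00. In +Pi the sum of these markers was also above Col-0 in CRR OE, as were *PME24* and *PME46*. In pooled roots more root hair cells and more RNA per hair cell cannot be told apart, and the part of root hair number in the levels of both PME genes was not tested.

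**Figure D2:**
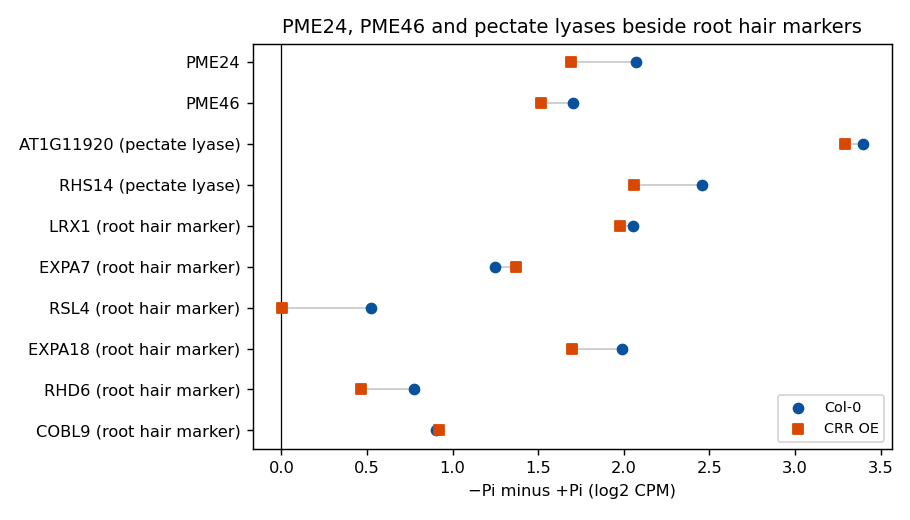
Difference between –Pi and +Pi (log2 CPM, x axis) in Col-0 (blue circles) and CRR OE (orange squares) for *PME24*, *PME46*, 2 pectate lyase genes and 6 root hair markers, as differences of the authors' group means. *PME24* (2.07 and 1.69) and *PME46* (1.71 and 1.51) lie in the upper part of the span of the markers or, for *PME24* in Col-0, just above it, where that span runs from 0.53 to 2.05 (Col-0) and from 0.00 to 1.98 (CRR OE).

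Each of these PME genes lies tail to tail with another member. *PME25* (AT3G10720) ends 30 bases from *PME24*, and *PME47* (AT5G04970) ends 12 bases from *PME46*. *PME25* and *PME47* are in turn each other's closest relatives, with 78.21% identical coding bases over 1845 aligned bases, while the neighbours within each pair share 59.88% and 59.45%. *PME25* stood at 5.88, 6.53, 5.79 and 5.97 log2 CPM in Col-0 +Pi, Col-0 –Pi, CRR OE +Pi and CRR OE –Pi. *PME47* stood at 5.20, 4.88, 5.25 and 5.28. The neighbours did not share the pattern of *PME24* and *PME46*: in Col-0 the log2 difference between –Pi and +Pi was 0.66 for *PME25* and -0.31 for *PME47*. Whether the counting used the strand of the reads was not given in the sources used here, and without it reads at the touching ends cannot be told apart, so the values of both genes of each pair are uncertain to that extent.

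**Figure D3:**
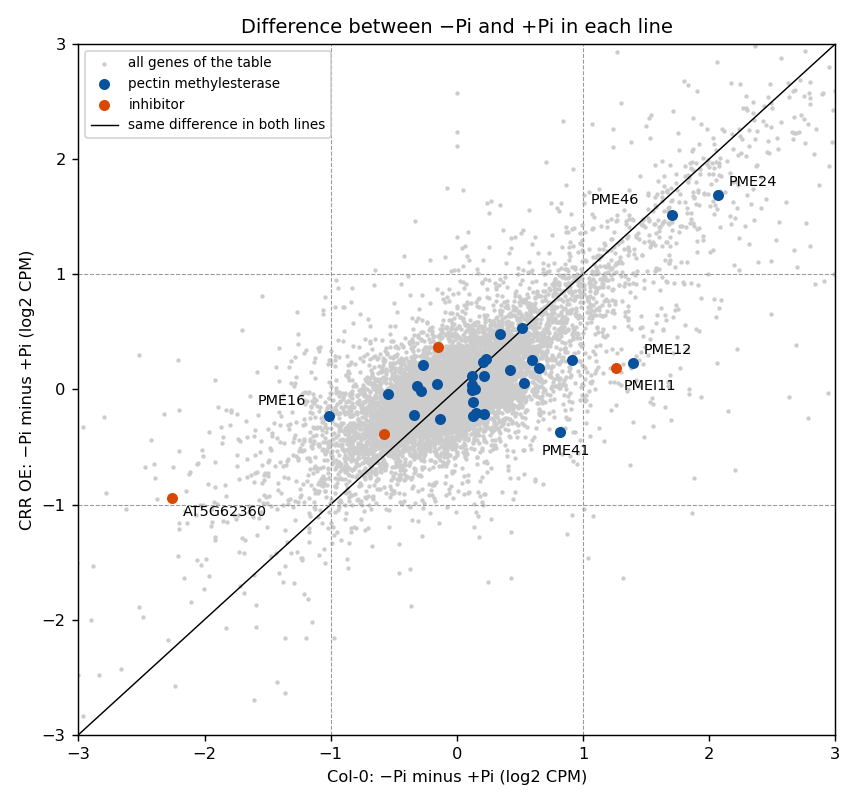
Difference between –Pi and +Pi for Col-0 (x axis) against that for the CRR OE line (y axis), both in log2 CPM, shown for the PMEs (blue), the inhibitors (orange) and all genes of the table (grey, those beyond 3 in size not drawn); the solid line marks equal differences and the dashed lines 2-fold. *PME24* and *PME46* lie past 2-fold on both axes, whereas *PME12*, *PMEI11*, *PME16* and AT5G62360 lie past 2-fold in Col-0 alone. Both axes rest on separate groups of libraries.

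Another set of members was higher in –Pi roots of Col-0 without a like rise in CRR OE. There *PME12* and *PMEI11* were nearly level, and *PME41* was lower in –Pi. *PME12* (AT2G26440, chr2:11247160-11249620) stood at 1.64 log2 CPM in Col-0 +Pi, 3.04 in Col-0 –Pi, 1.59 in CRR OE +Pi and 1.82 in CRR OE –Pi. The Col-0 –Pi group alone was high, and CRR OE –Pi had 0.43 times its level. *PMEI11* (AT3G47380, chr3:17457614-17458599), a gene of the inhibitor family, stood at 1.85, 3.12, 1.48 and 1.67 in the same order. Here too Col-0 –Pi was high, and CRR OE –Pi had 0.37 times its level. *PME41* (AT4G02330), a gene known to respond to brassinosteroid during chilling, stood at 3.83, 4.65, 3.99 and 3.62. Its log2 difference between –Pi and +Pi was 0.82 for Col-0 but -0.37 for CRR OE, where –Pi roots had 0.49 times the level of Col-0 –Pi. These 3 genes were the members at least 2-fold lower in CRR OE than in Col-0 in –Pi, 8.82% of the members against 0.747% of all genes, and no member was 2-fold higher, where 0.702% of all genes were.

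Smaller differences of the same kind were present in *PME20* (AT2G47550), *PME44* (AT4G33220) and *PME25*. *PME20* stood at 4.14, 5.06, 4.20 and 4.45 log2 CPM, and *PME44* at 3.91, 4.44, 3.84 and 3.90. In –Pi the log2 difference between CRR OE and Col-0 was -0.60 for *PME20*, -0.54 for *PME44* and -0.56 for *PME25*, each outside the central range of its level class.

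The reverse pattern was seen in *PME16* (AT2G43050, chr2:17902370-17904443), which stood at 3.67 log2 CPM in Col-0 +Pi, 2.66 in Col-0 –Pi, 3.88 in CRR OE +Pi and 3.65 in CRR OE –Pi. Its Col-0 –Pi group alone was low, and CRR OE –Pi was 1.98-fold higher, just under the 2-fold limit. *PME2* (AT1G53830) stood at 6.07, 5.52, 6.17 and 6.13, with CRR OE –Pi 0.61 above Col-0 –Pi on the log2 scale. Its neighbour on the same strand, *PME1*, 320 bases away, had –Pi differences of 0.15 (Col-0) and 0.00 (CRR OE). *PME3*, the closest relative of *PME2* with 79.94% identical coding bases, differed by 0.07 between the lines in –Pi.

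**Figure D4:**
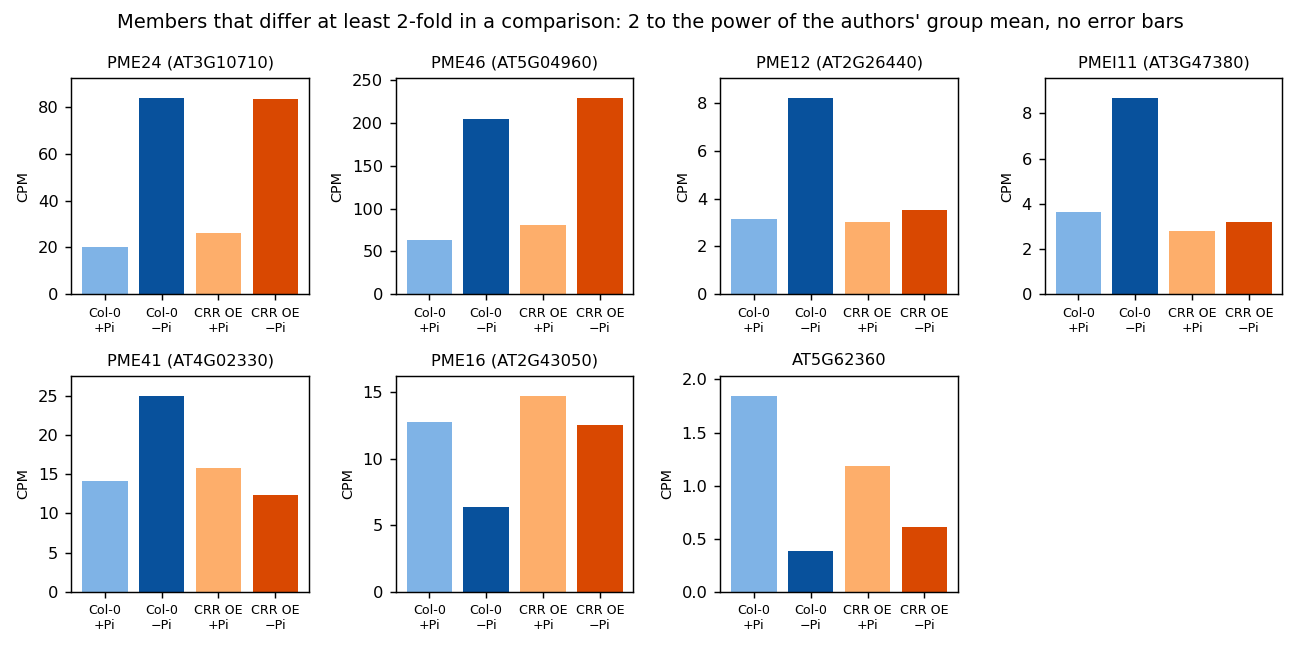
Level of the 7 members past 2-fold in any comparison, in CPM (bars from 0, computed as 2 to the power of the authors' group mean, with no error bars; each panel has its own scale). *PME24* and *PME46* are high in both –Pi groups, *PME12*, *PMEI11* and *PME41* in Col-0 –Pi alone, and *PME16* is low in Col-0 –Pi alone.

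Of the 4 inhibitors, AT5G62350 had the highest level per kb of exon (6.03 log2 CPM per kb) and AT5G62360 the lowest of all members (-0.19). AT5G62350 stood at 6.59 log2 CPM in Col-0 +Pi, 6.01 in Col-0 –Pi, 6.56 in CRR OE +Pi and 6.17 in CRR OE –Pi, so that both –Pi groups were below both +Pi groups. AT5G62360, which lies 2115 bases further on the same strand, stood at 0.88, -1.37, 0.24 and -0.70, also with both –Pi groups below both +Pi groups. Its level was at most 1.85 CPM, and few reads can lie behind each value. *PMEI4* (AT4G25250), known to act on PME17 in roots, stood at 4.38, 4.23, 4.59 and 4.96, with the highest value in CRR OE –Pi, 0.73 above Col-0 –Pi on the log2 scale. *PMEI11* differed from its closest relative AT5G62350 (75.91% identical over 602 aligned coding bases) in direction: in Col-0 the log2 difference between –Pi and +Pi was 1.26 for *PMEI11* and -0.57 for AT5G62350. The inhibitors thus had no common direction in Col-0, with 3 lower and 1 higher in –Pi.

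In +Pi the median size of the difference between the lines was 0.10 for the members, against 0.08 over all genes. No member was 2-fold higher or lower in CRR OE, against 0.126% and 0.162% of all genes. With shares this small a count of 0 is near what they give, and nothing is read from it. The median difference was 0.08, with 0.00 over all genes. Of the 34 members 25 were above 0 in CRR OE and 9 below, where 9878 and 9913 of all genes were. *PME24*, *PME46* and *PMEI11* lay outside the central range, the last with a log2 difference of -0.37. In –Pi 11 of 34 members (32.4%) lay outside the central range between the lines, 4 of them higher in CRR OE (*PME16*, *PMEI4*, *PME2* and *PME47*) and 7 lower (*PMEI11*, *PME12*, *PME41*, *PME20*, *PME25*, *PME44* and *ATPMEPCRA*). Their differences had no common direction, as 18 members were above 0 and 16 below, with a median of 0.05. The median size regardless of direction was 0.25 against 0.11 over all genes. By level class it was 0.28 for the 3 members from 0 to 2, against 0.23, and 0.67 for the member below 0, against 0.42. It was 0.27 for the 16 members from 2 to 5 log2 CPM, against 0.11 for all 9256 genes of that class, and 0.18 for the 14 members of 5 or more, against 0.09.

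**Figure D5:**
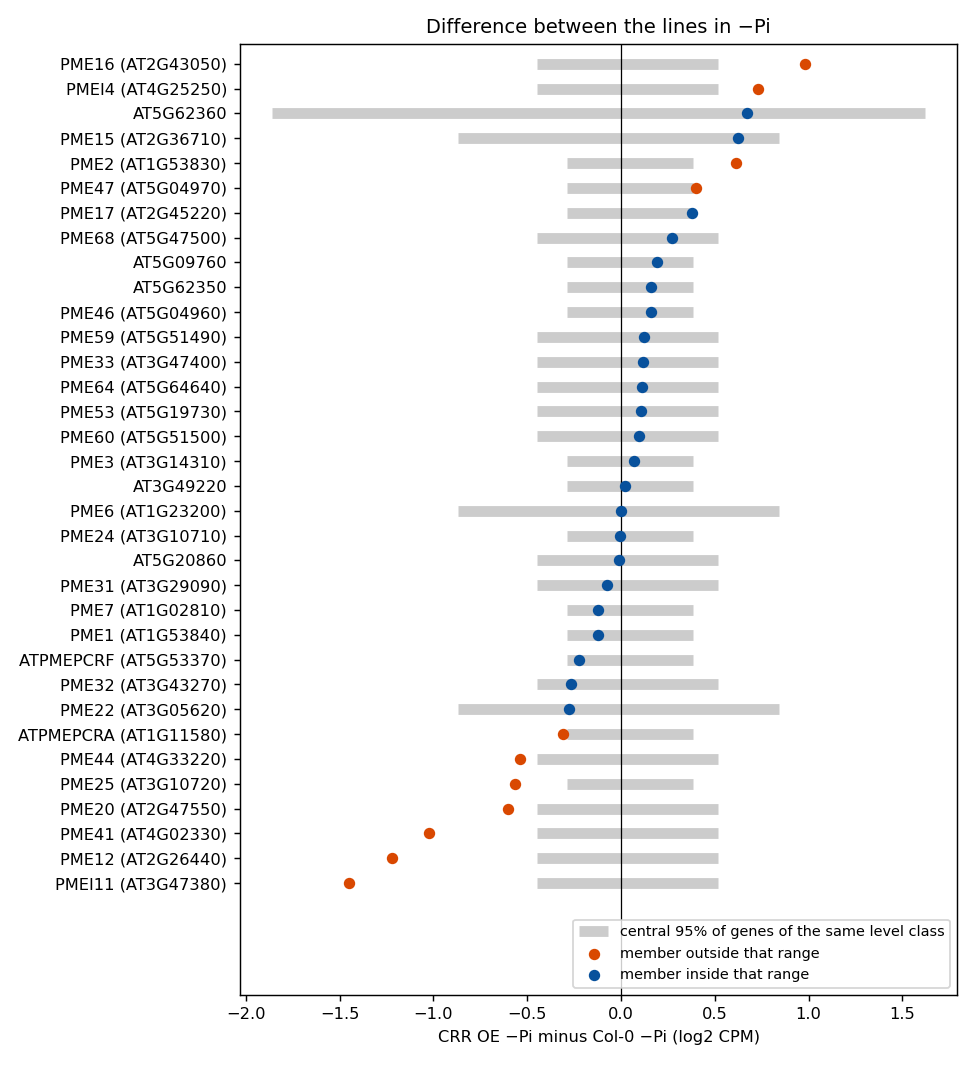
Difference between CRR OE and Col-0 in –Pi for each member (log2 CPM, x axis), from the authors' group means; grey bars are the central 95% of all genes of the same level class, and orange points lie outside them. 11 members lie outside, from *PMEI11* at -1.45 to *PME16* at 0.98.

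The –Pi differences of the lines were also compared directly, as the CRR OE difference minus the Col-0 difference. AT5G62360 (1.31) was the only member at least 1 higher by this measure, where 1.09% of all genes were. Its value lay inside the wide central range of its low level class (-2.04 to 1.68). *PME41* (-1.19), *PME12* (-1.16) and *PMEI11* (-1.08) were at least 1 lower, where 1.06% of all genes were. In all, 10 members (29.4%) lay outside the central range. Of the 10 members at least 0.5 higher in –Pi in Col-0, 9 had a smaller difference in CRR OE, *PME60* being the exception, and the medians were 0.87 and 0.24. Over all genes 77.7% of 1680 had a smaller one, with medians of 0.96 and 0.69. The 4 members at least 0.5 lower in Col-0 –Pi, *PME2*, *PME16*, AT5G62350 and AT5G62360, were all nearer to 0 in CRR OE, where 89.2% of 1521 genes were. As these genes were picked by the Col-0 value that the comparison uses, a smaller second value is favoured by the choice itself. No member was 2-fold lower in –Pi in CRR OE, where 0.853% of all genes were.

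The remaining members varied less. *PME59* and *PME60* lie 1915 bases apart on the same strand with 87.29% identical coding bases. How reads that match both copies were counted was not given in the sources used here. These 2 genes were higher in –Pi by 0.35 and 0.51 in Col-0, and by 0.48 and 0.53 with CRR overexpressed, on the log2 scale. AT3G49220, known as *PME34* for its role in guard cells, stood at 5.17, 5.29, 5.27 and 5.31 log2 CPM in the order of groups above. *PME68* (AT5G47500), also called *PME5* and known from the shoot meristem, stood at 4.53, 4.27, 4.33 and 4.54. By coding length, 26 of the 30 PMEs were long (1536 to 1932 bases), and these held all 5 enzymes past 2-fold. The 4 short ones (954 to 1224 bases), *PME15*, *PME31*, *PME53* and *PME68*, had no difference larger than 0.62 in any comparison. With most PMEs in the long class, nothing is read from these counts. *PME7* and *PME41*, which share 78.21% of coding bases, differed by -0.12 and -1.03 between the lines in –Pi, and AT5G09760 and *PME64*, with 77.12%, by 0.19 and 0.11.

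Other genes of pectin metabolism were counted in the same way, with no test, beside the 3.96% of all genes 2-fold higher and 2.00% lower in –Pi in Col-0. In lists this short a count of 0 or 1 is near what those shares give, and nothing is read from it. Of 16 pectate lyase genes, 2 were past 2-fold higher in –Pi in both lines: AT1G11920, by 3.40 (Col-0) and 3.29 (CRR OE) on the log2 scale, and *RHS14* (AT4G22080), a root hair gene, by 2.46 and 2.06. AT1G11920 stood at only -0.93 log2 CPM in Col-0 +Pi and -0.92 in CRR OE +Pi, and few reads can lie behind these 2 values. Of 8 genes annotated with polygalacturonase, 3 of which (*PGL1*, *PGL2* and *PGL3*) are named as beta-like proteins and not as the enzyme, 0 were past 2-fold in any comparison, and of 10 pectin acetylesterases also 0. Among 23 genes found by the word galacturonosyltransferase or the name *GAUT*, which include a xyloglucan-specific enzyme (AT1G63450) and a gene of unknown function (AT1G74088), *GAUT2* had a log2 difference of -1.15 between –Pi and +Pi in Col-0 and of 1.26 between the lines in –Pi. Among the wall receptors with a row, *WAK2* and *WAK4* were higher in –Pi by 1.02 and 0.95 in Col-0, against 0.18 and 0.48 in CRR OE, and *FER* by 0.19 and 0.09. *GAUT2* stood at 0.55, -0.59, 0.76 and 0.66 log2 CPM in Col-0 +Pi, Col-0 –Pi, CRR OE +Pi and CRR OE –Pi. *WAK2* stood at -0.68, 0.34, -0.44 and -0.25 in the same order, and few reads can lie behind the values of both genes. The subtilase gene *SBT3.5* was higher in –Pi by 0.43 and 0.41. Of 13 further genes annotated with PMEs or inhibitors, *sks9* alone was past 2-fold, 1.11 higher in –Pi in Col-0, although its name places it with the multicopper-oxidase-like proteins.

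Other markers moved with the groups as well. The 6 xylem markers summed to 332.9, 257.1, 344.6 and 380.8 CPM in Col-0 +Pi, Col-0 –Pi, CRR OE +Pi and CRR OE –Pi, and in –Pi all 6 were above Col-0 in CRR OE (median 0.60). The 5 markers of dividing cells had a median of -0.25 in that comparison, and those of the root cap (4 genes) -0.31. Endodermis markers (7 genes) summed to 201.7 to 206.7 CPM in all groups. The 3 shoot markers with a row summed to 21.03 to 29.56 CPM, with *RBCS-2B* at -1.81 log2 CPM or lower. Root markers of each kind were thus present, as the tissue label states, and so were the shoot markers *RBCS-1A* and *LHCB1.3*. The part of these cell types in the differences of the PME and inhibitor genes was not tested.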

How the data were processed

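Total RNA of pooled roots was sequenced in 12 libraries. Per the methods and the submitters' processing notes, the authors trimmed reads (Cutadapt 1.8), aligned them with STAR 2.5.3a to TAIR10, counted them per gene with HTSeq 0.9.1, removed genes of low counts, and used edgeR 3.24.3 for TMM scaling and conversion to log2 CPM. RSEM 1.2.31 and R 3.5.3 appear in the notes too. The deposited values used here are log2 CPM, 1 authors' mean per group for 19802 genes, without values per library. A planned fit with limma was therefore replaced by differences of these means. The deposited comparison tables hold the authors' fold changes, p-values, adjusted p-values and F statistics and were not used.

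Named were the members at least 1 apart on the log2 scale in any of the 5 comparisons, the inhibitors, the 3 members with the highest level per kb and members of known role. *PME20*, *PME25*, *PME44*, *PME47*, *PME2* and other members outside this rule were named after their values were seen. Members, gene lists and limits were chosen with earlier results of these data known. Coding identities come from global alignments (Biopython 1.88), gaps not counted, and upstream sequences and gene models from RefSeq's TAIR10.1, in which 19782 of 19802 genes were found by locus. The upstream sequence of 1 member is not reported here. The difference calculation was tested on simulated data. Thresholds, an added 1 CPM, a filter and centring were varied.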

Additional observations from a re-analysis of the deposited data

How the results depend on the processing

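No paired analysis was possible because the table holds 1 mean per group and no value per library; leaving out each replicate in turn was not run for the same reason. The paper reports the number of reads of each library, but without expression values per library no interval could be given. Of 40 alternative counts and medians, 33 stayed within the limits set (1.5 times for counts, 0.1 log2 for medians) and 7 did not. The 33 include all values under the filter, a highest group mean of at least 0 log2 CPM. Every member passed this filter, so these values could not differ from the main ones and say nothing about stability. In Col-0 (–Pi against +Pi) the 6 members past 2-fold became 10 at a 1.5-fold limit (8 higher, 2 lower; 13.3% of all genes) and 3 at a limit of 1.5 on the log2 scale (3.18%). Between the lines in +Pi the count went from 0 to 1 at 1.5-fold (1.43%). Between the lines in –Pi it went from 3 to 9 at 1.5-fold (5 higher, 4 lower; 5.02%) and to 0 at 1.5 log2 (0.525%). For the difference between the lines in the –Pi response it went from 4 to 1 with 1 CPM added (0.687%) and to 0 at 1.5 log2 (0.712%). Among 140 alternative differences of the 14 named members, 135 kept their direction and side of the 2-fold limit, and none reversed. With 1 CPM added, 5 fell short of 2-fold: *PME16* in Col-0 (-0.91), *PME41* between the lines in –Pi (-0.97), and *PME12* (-0.98), *PMEI11* (-0.93) and AT5G62360 (0.60) in the difference between the responses. An added count pulls low genes towards 0 by its construction. Centring each group on its median over all genes, which lay between 4.32 and 4.33, moved no count past 1.5 times.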
